A study of Mus musculus with 8 samples.

Results

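Heparan sulfate is a long sugar chain that is attached to core proteins at the cell surface and in the matrix, where it binds growth factors, proteases and matrix proteins. The 10 genes described here encode 7 enzymes that build the chain (Ext1, Ext2, Extl3, Ndst1, Glce, Hs2st1 and Hs6st1) and 3 core proteins that carry it (Sdc1, Sdc4 and Gpc1). They were selected on measured values: the acetate minus vehicle differences of these same libraries were known when the list was drawn up, so the levels and differences between treatments below are a description of the members, with no test. The 10 genes were found by symbol among the 20189 genes of the deposited table, and all 10 were present.

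The libraries came from 4T1, a line of mouse mammary carcinoma cells with metastatic ability in mice, labelled WT for genotype. Cells were cultured in serum-containing medium for 48 h with either 5 mM acetate or the vehicle, water, and messenger RNA was sequenced from 4 libraries of each group. Each number from 1 to 4 marks 1 vehicle and 1 acetate library that share a code in the labels, and these pairs are called replicates. All 8 libraries are from 1 established line, so the values apply to that line, and p-values measure the spread between these replicates, which the study counts as independent experiments and the labels do not describe further.

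Values are normalised reads: reads of a gene divided by the reads of its library and scaled to a total of 20.0 M (M, mega), called units here, so that 1 unit is close to 1 read. The libraries held 19.9 to 29.3 M reads over the genes of the table. The lowest value of any member was 1372 units, from 1500 reads, and counting error added at most 0.05 to the SD of a log2 difference within a pair. Epithelial markers were abundant, with Krt8 at 17471 ± 1623 units and Epcam at 6630 ± 2069 units in vehicle (SD, n = 4). In bulk RNA, fewer cells of a type and less RNA per cell cannot be told apart.

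Chain synthesis starts on a short linker built on the core protein. EXTL3 adds the first sugar that commits the linker to heparan sulfate, and EXT1 with EXT2 form the polymerase that lengthens the chain. NDST1 then replaces acetyl groups by sulfate, GLCE turns glucuronic acid into iduronic acid, and HS2ST1 and HS6ST1 add sulfate at further positions. The syndecans SDC1 and SDC4 span the membrane, and the glypican GPC1 is held at the surface by a lipid anchor.

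Promoter sequence was at hand for 6 of the 10 members, from RefSeq on build GRCm38.p6. Of the 250 bases before the RefSeq start, those outside the GENCODE gene span are shown for Glce, the member with the lowest acetate minus vehicle difference, and for Sdc1, a core protein with the opposite sign. Both are written 5′ to 3′ on the strand of the gene, with the GC box GGGCGG, found on either strand, in capitals. The Glce stretch is chr9:62122656-62122859 on the minus strand, 204 bases, and the Sdc1 stretch is chr12:8771146-8771322 on the plus strand, 177 bases.
Glce: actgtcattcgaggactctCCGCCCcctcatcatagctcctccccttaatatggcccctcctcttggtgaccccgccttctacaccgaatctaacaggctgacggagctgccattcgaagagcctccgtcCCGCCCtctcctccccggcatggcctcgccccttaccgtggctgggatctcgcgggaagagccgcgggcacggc
Sdc1: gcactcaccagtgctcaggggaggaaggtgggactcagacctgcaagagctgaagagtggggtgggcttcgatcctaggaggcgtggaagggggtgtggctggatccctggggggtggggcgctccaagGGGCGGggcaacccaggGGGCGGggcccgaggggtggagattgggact

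Each stretch holds 2 GC boxes. The whole windows of 250 bases held 3 in each gene, and 32.7% of all 32851 promoter windows of that length held at least 1. Among the other members the count was 6 in Hs6st1, 4 in Sdc4, 1 in Hs2st1 and 0 in Ext2. The Sdc4 window, chr2:164443189-164443438 on the minus strand, lies wholly inside the GENCODE span of the gene. The windows of 5 of the 6 members had a GC content from 64.4% to 76.4%, against a median of 52.4% over all windows, and Ext2 had 54.8%. The motif CCAAT was found on either strand in Hs2st1 with 2 matches and in Sdc1 with 1, and 33.8% of all windows held it. TATAAA, held by 12.4% of all windows, had 0 matches in the 6 members. CACGTG, held by 6.02%, had 1 match, in Ext2. These are matches of letters in the windows and say nothing of which factor is bound.

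Compared per kb of exon, the level of the members in vehicle spanned a wide range, with the core proteins at the top. Sdc4 had 2658 ± 652 units per kb, Sdc1 had 977 ± 137 and Gpc1 had 862 ± 252 (SD, n = 4). The enzymes followed with Hs2st1 at 474 ± 50.1, Hs6st1 at 423 ± 40.8, Ndst1 at 394 ± 26.9, Extl3 at 327 ± 9.0, Ext2 at 271 ± 28.2, Glce at 251 ± 26.5 and Ext1 at 195 ± 11.2 units per kb. All 10 lay in the upper part of the table, from percentile 74.4 for Ext1 to 98.7 for Sdc4 among all genes per kb. The polymerase subunits and the epimerase were thus the least abundant of the members. Neighbours in this order overlapped over the 8 libraries except Sdc4 above Sdc1 and Extl3 above Ext2, whose ranges were apart. Sdc1 was above Gpc1 in 5 of 8 libraries, and Glce was above Ext1 in 7 of 8.

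**Figure D1:**
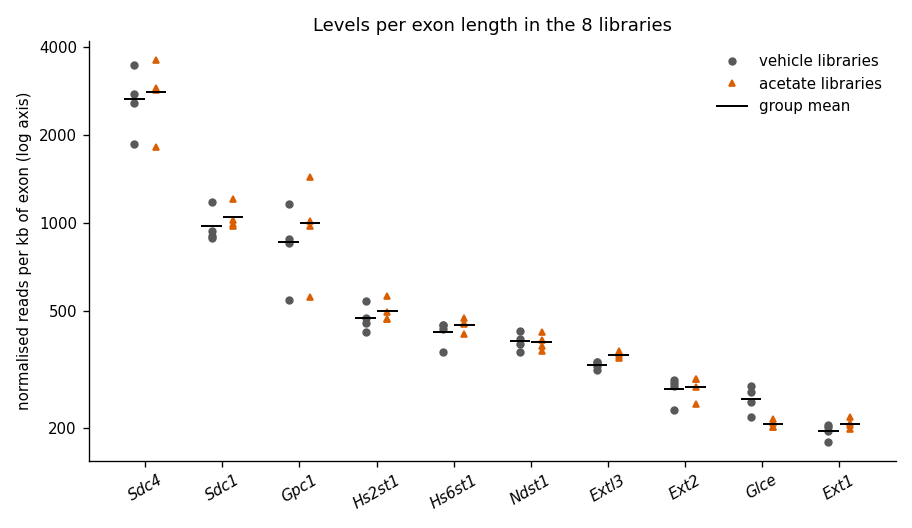
Level of each member per kb of exon, in units per kb on a log axis, with 1 point for each of the 8 libraries, coloured by treatment. Sdc4 lies above every other member, with a vehicle mean of 2658 units per kb, and Glce and Ext1 lie at the bottom.

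Glce, the chain-modifying epimerase (ENSMUSG00000032252, chr9:62057248-62122655, minus strand), was lower with acetate in every pair. It had 1478, 1667, 1812 and 1889 units in vehicle replicates 1 to 4 and 1377, 1372, 1416 and 1455 units in acetate replicates 1 to 4. The highest acetate library was below the lowest vehicle library, so the groups did not overlap, which held for 1.65% of all genes. The means were 1711 ± 181 units in vehicle and 1405 ± 38.9 in acetate (SD, n = 4). The log2 difference, acetate minus vehicle, was -0.28, or -17.6%, with an SE of 0.04 within pairs. It was -0.10, -0.28, -0.36 and -0.38 in replicates 1 to 4, so replicate 1 showed the smallest difference. The acetate libraries lay in a narrow band, while the vehicle libraries were spread more widely.

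The polymerase subunits differed little between treatments. Ext1 (ENSMUSG00000061731, chr15:53064038-53346159) had 1447, 1619, 1655 and 1578 units in vehicle replicates 1 to 4 and 1594, 1756, 1670 and 1646 units in acetate. It was higher with acetate in 4 of 4 pairs, with a log2 difference of 0.08 and differences from 0.01 to 0.14 in single pairs, and the groups overlapped. Ext2 (ENSMUSG00000027198, chr2:93661028-93822568) had 1677, 2088, 2125 and 2039 units in vehicle and 1770, 2012, 2148 and 2151 units in acetate. Its log2 difference was 0.03, with 1 pair of the 4 lower. In both groups replicate 1 held the lowest Ext2 value.

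Extl3, which starts the chain (ENSMUSG00000021978, chr14:65052060-65149855), had 1914, 2031, 1970 and 2025 units in vehicle replicates 1 to 4 and 2094, 2220, 2159 and 2125 units in acetate. All 4 acetate libraries were above all 4 vehicle libraries, so Extl3 and Glce were the 2 members whose groups did not overlap, in opposite directions. The means were 1985 ± 54.6 and 2150 ± 54.3 units (SD, n = 4), a log2 difference of 0.11 with an SE of 0.03 within pairs. The difference was 0.13, 0.13, 0.13 and 0.07 in replicates 1 to 4.

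The sulfotransferases lay between. Ndst1 (ENSMUSG00000054008, chr18:60684494-60748650) had 3324, 3198, 2996 and 3526 units in vehicle replicates 1 to 4 and 3288, 3140, 3023 and 3508 units in acetate, and its log2 difference was -0.01. Its 2 values in each pair lay close together, with differences from -0.03 to 0.01. The ribosomal protein gene Rps14 overlaps the span of Ndst1 on the other strand and averaged 289% of its value. Whether reads were counted by strand is not stated, so the share of such reads in the Ndst1 value is not known.

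Hs2st1 (ENSMUSG00000040151, chr3:144429706-144570181) had 4451, 3479, 3733 and 3900 units in vehicle replicates 1 to 4 and 4625, 3841, 3866 and 4076 units in acetate. It was higher with acetate in 4 of 4 pairs, with a log2 difference of 0.08, and replicate 1 was the highest in both groups. Hs6st1 (ENSMUSG00000045216, chr1:36068400-36106446) had 2009, 2482, 2480 and 2400 units in vehicle and 2496, 2633, 2529 and 2307 units in acetate. Its log2 difference of 0.09 came mostly from replicate 1, at 0.31, and the other pairs ranged from -0.06 to 0.09.

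Among the core proteins, Gpc1 had the highest difference of the 10 members. Gpc1 (ENSMUSG00000034220, chr1:92831645-92860779) had 2820, 4405, 4553 and 6000 units in vehicle replicates 1 to 4 and 2887, 5054, 5244 and 7404 units in acetate. Its log2 difference was 0.18 with an SE of 0.04 within pairs, and 0.03, 0.20, 0.20 and 0.30 in replicates 1 to 4. The groups overlapped widely, since replicate 4 was above and replicate 1 below the rest in both groups.

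Sdc1 (ENSMUSG00000020592, chr12:8771323-8793715) had 4494, 3374, 3449 and 3567 units in vehicle replicates 1 to 4 and 4588, 3770, 3725 and 3883 units in acetate. It was higher with acetate in 4 of 4 pairs, by 0.11 on the log2 scale, and its groups overlapped because replicate 1 was high in both. Sdc4 (ENSMUSG00000017009, chr2:164424247-164443887) had 4748, 7011, 6530 and 8789 units in vehicle and 4622, 7353, 7264 and 9194 units in acetate. Its log2 difference was 0.06, with replicate 1 lower by 0.04 and the other 3 pairs higher.

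**Figure D2:**
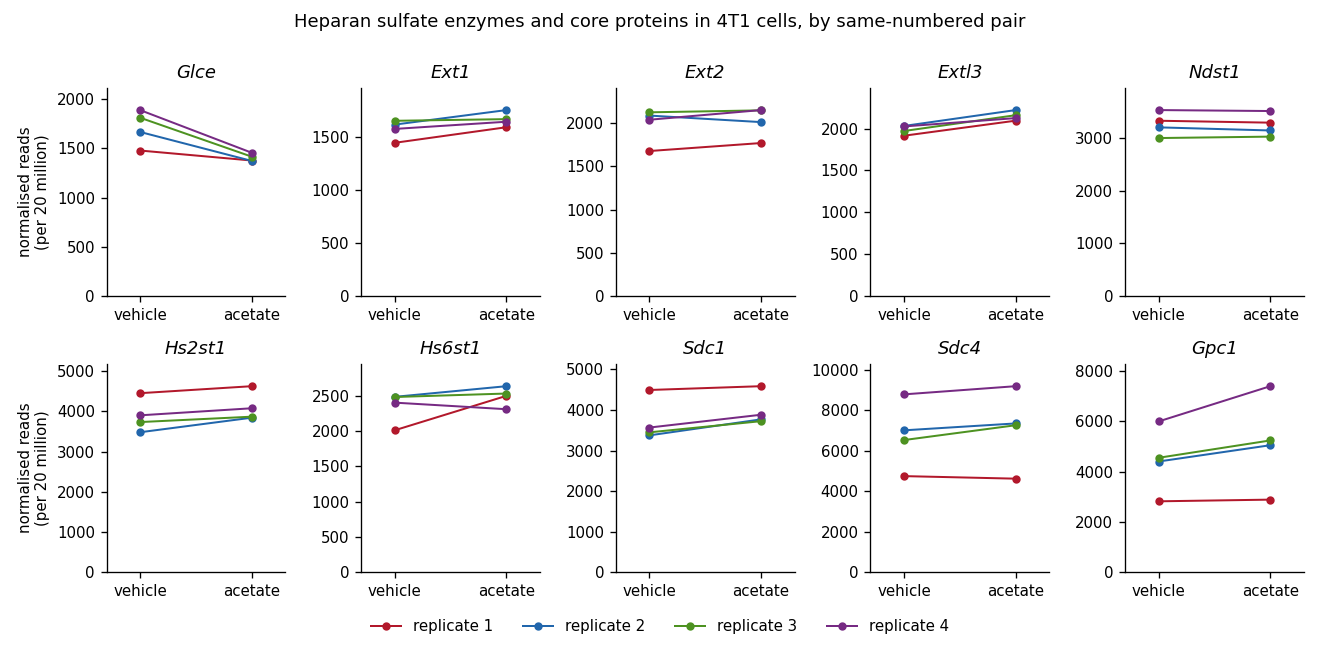
Value of each member in units, 1 panel per gene, with a line joining the vehicle and acetate library of each replicate. The 4 Glce lines all descend, the 4 Extl3 lines all ascend, and in the Gpc1 panel replicates 1 and 4 lie far apart in both groups.

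Set side by side, 5 of the 10 members were higher with acetate in 4 of 4 pairs, where 16.7% of all genes were, and 1 was lower in 4 of 4 pairs, where 11.4% of all genes were. The median log2 difference of the members was 0.08, against 0.02 over all genes. In limma without the replicate number 0 members passed an adjusted p of 0.05, as did 0% of all genes, and 353 genes had an unadjusted p under that value. In limma with the replicate number as a block, 4 members were past the threshold: Extl3, Sdc1 and Gpc1 higher and Glce lower. The share of all genes past it was 8.64%, with 5.99% higher and 2.65% lower. Of the 3259 genes with a mean at or above that of the lowest member, 318 passed as higher and 240 as lower. In 4 of 4 pairs, 690 of the 3259 were higher and 720 lower. With edgeR and the block, which called 11.9% of all genes, Glce and Gpc1 were past the threshold and Extl3 and Sdc1 were not, as with DESeq2 and with median-of-ratios scaling. As the members were chosen with this contrast in view, nothing is read from these counts. Without pair 3 or without pair 4, 0 members passed in the blocked limma fit, and without pair 2 only Glce did. Without the block, leaving out 1 library at a time moved the log2 difference of Glce from -0.35 to -0.23 and that of Extl3 from 0.10 to 0.13, with no change of sign. The range was -0.02 to 0.44 for Gpc1 and -0.10 to 0.25 for Sdc4, both negative without vehicle replicate 1 or without acetate replicate 4, and 0.04 to 0.20 for Sdc1.

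**Figure D3:**
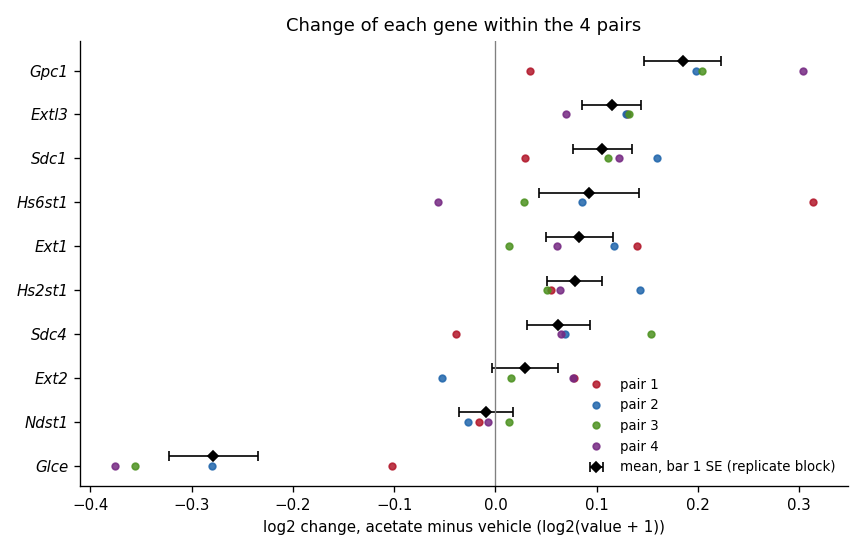
Log2 difference, acetate minus vehicle, of each member. Points are the 4 pairs, diamonds the mean over pairs and bars 1 SE of the fit with the replicate block; Glce, at -0.28, is the member farthest below 0, and Gpc1, at 0.18, the farthest above.

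Ratios within a library restate the same differences, since Glce had the lowest of the 10 differences in each pair. The ratio of Glce to each of the 9 other members was lower with acetate in 4 of 4 pairs, and the mean log2 difference of the ratio ranged from -0.27 against Ndst1 to -0.46 against Gpc1. Of the summed units of the 10 members, Glce made up 5.21% to 5.79% in the vehicle libraries and 3.86% to 4.69% in the acetate libraries. The 3 core proteins made up 42.5% to 51.4% of that sum in vehicle and 41.2% to 54.3% in acetate. A share within a library is free of the library scaling, but it moves with the other members as well.

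The genes most like Glce over the 8 libraries were not members. Likeness was the root mean square difference between the log2 values of 2 genes, each centred on its own mean, among 11087 genes with a mean above 50 units. The 5 nearest were Aldh16a1 at 0.07, Mipol1 at 0.07, Mvb12b at 0.07, Gas5 at 0.08 and Myof at 0.08 on the log2 scale. The nearest member was Ext2 at 0.18, and 1373 genes were nearer to Glce than Ext2 was. The measure uses the same libraries that chose Glce and is a description.

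The spread between replicates is a different measure from the differences within replicates that chose the members, although those differences were taken by the same numbers. In a limma F test of replicate number with treatment as a covariate, 7 of the 10 members had an adjusted p under 0.05, against 58.2% of all genes. Among the 3259 genes with a mean at or above that of the lowest member, 2842 did, so the members' count does not set them apart. The adjusted p was 2.01e-08 for Gpc1, 3.48e-08 for Sdc4, 3.24e-05 for Sdc1, 1.13e-04 for Hs2st1, 3.08e-04 for Ext2, 0.00138 for Ndst1 and 0.0406 for Glce. The 3 members not past the threshold were Ext1 (adjusted p 0.0581), Hs6st1 (0.106) and Extl3 (0.360). After median-of-ratios scaling 6 members passed: Glce (adjusted p 0.202) and Ext2 no longer did, and Extl3 did.

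Replicates 1 and 4 lay at opposite ends for Gpc1 and Sdc4. Relative to the mean of all 8 libraries, Gpc1 stood at -0.68 in replicate 1, 0.04 in replicate 2, 0.09 in replicate 3 and 0.54 in replicate 4, and Sdc4 at -0.53, 0.09, 0.03 and 0.41, on the log2 scale. Sdc1 and Hs2st1 were highest in replicate 1. On the log2 scale, replicate 1 minus the mean of the others was -0.91 for Gpc1 and -0.70 for Sdc4, and 0.33 for Sdc1 and 0.25 for Hs2st1. The median of all genes above 10 units was -0.14 on the same contrast, so Glce, at -0.16, lay close to it. Median-of-ratios scaling moves every gene of a library alike and shifted that median to 0.06, Glce to 0.04 and Ext2 from -0.28 to -0.08, while positions relative to the median are nearly the same by construction.

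The replicate number and the treatment took different parts of the variance. For Sdc4 the replicate number held 98.2% of the variance of the log2 values over the 8 libraries and treatment 0.83%, and for Gpc1 the shares were 94.6% and 4.20%. For Glce the replicate number held 23.4% and treatment 66.6%, and for Extl3 20.8% and 75.2%. Without replicate 1, the members past the threshold in the F test were Ndst1 (adjusted p 0.00193), Sdc4 (2.94e-05) and Gpc1 (6.49e-06), 3 in number.

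**Figure D4:**
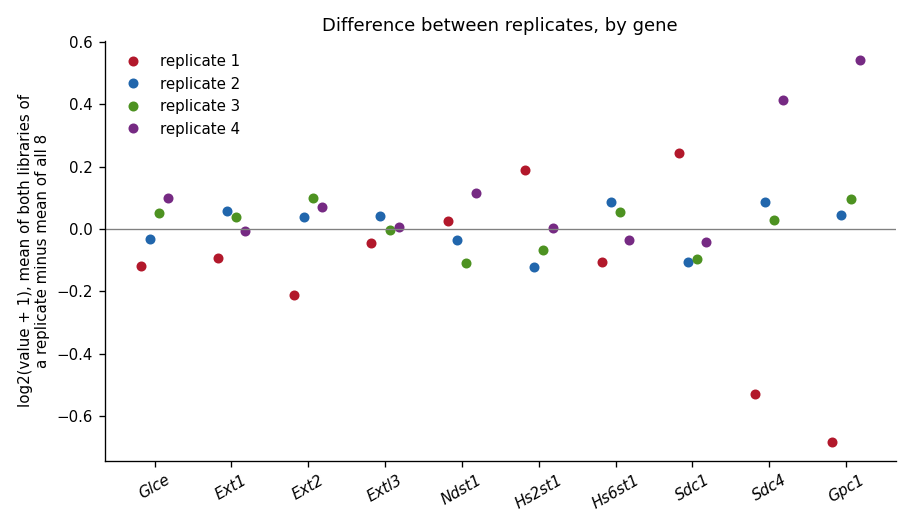
Mean log2(value + 1) of the vehicle and acetate library of each replicate, minus the mean of all 8 libraries, for each member. Replicate 1 is below the others for Gpc1 and Sdc4 and above them for Sdc1 and Hs2st1, while the points of Extl3 lie close together.

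The other genes of the pathway were taken from 7 lists that cover the linker, the chain, the O-sulfotransferases, the sugar and sulfate donors, further core proteins, enzymes that trim the finished chain and the lysosomal enzymes that break it down. Of 55 genes listed, 41 were in the table, and 11 of these rose with acetate and 0 fell in limma with the replicate block, where 5.99% of all genes rose. Their median log2 difference was 0.05, against 0.02 over all genes. Treating the libraries as unpaired left 0 of the 41 past the threshold, also at an unadjusted p of 0.05. In the paired fits, edgeR called 10 of the 41 and DESeq2 called 5. In limma with the block, the count was 2 without pair 2, 2 without pair 3 and 3 without pair 4.

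Further core proteins made up 4 of the 11. Agrn, the secreted proteoglycan agrin, rose from 9756 ± 978 to 11104 ± 915 units, by 0.19 on the log2 scale (adjusted p 0.00129, limma with the block). Gpc4, another glypican, rose by 0.22 (adjusted p 0.0137), Sdc3, another syndecan, by 0.25 (adjusted p 0.0299) and Col18a1, a collagen of basement membranes, by 0.12 (adjusted p 0.0127), each higher in 4 of 4 pairs. Agrn passed in each of the 13 settings with the block, while Gpc4, Sdc3 and Col18a1 did not pass without pair 2, 3 or 4, and Sdc3 and Col18a1 did not pass in DESeq2. Perlecan, Hspg2, had the most units of these core proteins and did not pass, at 10925 ± 2377 units in vehicle and 11513 ± 2736 in acetate (adjusted p 0.235). Per kb of exon Agrn was above it, at 1051 against 764 units per kb in vehicle and 1196 against 805 in acetate.

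Among enzymes, Hs3st1, which adds the rare 3-O-sulfate, was the only one of 9 further O-sulfotransferases in the table. It rose by 0.57 on the log2 scale with an SE of 0.07, from 300.1 ± 167 to 448 ± 242 units (adjusted p 8.69e-04, limma with the block), was higher in 4 of 4 pairs and passed in each of the 13 settings with the block. Sulf2, which removes 6-O-sulfate outside the cell, rose by 0.41 (adjusted p 0.0153), from 144 ± 83.6 to 192 ± 114 units, but did not pass without pair 2, 3 or 4. Heparanase, Hpse, did not pass, with a difference of 0.29 (adjusted p 0.0983).

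Of the 6 linker genes in the table, Pxylp1, a phosphatase that acts on the linker xylose, rose by 0.20 (adjusted p 0.0272, limma with the block). The xylose kinase Fam20b at 0.03 (adjusted p 0.589) and B3gat3, which adds the last linker sugar, at 0.05 (adjusted p 0.568) did not pass. None of the 5 further chain genes passed. Ndst2, which does the same reaction as Ndst1, had a difference of -0.09 (adjusted p 0.266), and Extl2 had 0.02 (adjusted p 0.840). Of the 10 donor genes, Papss1, which makes the sulfate donor, rose by 0.15 (adjusted p 0.00592) and Ugp2, which makes UDP-glucose, by 0.13 (adjusted p 0.0301). Pxylp1 and Ugp2 did not pass in DESeq2 or without pair 2, 3 or 4, Pxylp1 also with quantile scaling and Ugp2 with median-of-ratios scaling, and Papss1 did not pass without pair 2 or 3. Ugdh, which makes UDP-glucuronic acid, stood at 0.02 (adjusted p 0.784) and the phosphatase Bpnt2 at -0.01 (adjusted p 0.855).

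Among the lysosomal enzymes, Sgsh, a sulfatase of heparan sulfate breakdown, rose by 0.17 in limma with the block (adjusted p 0.0475) and did not pass in edgeR or DESeq2, or without any 1 pair. Gusb, which removes glucuronic acid, had a difference of -0.03 (adjusted p 0.592).

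The sister chain, chondroitin sulfate, grows from the same linker and competes with heparan sulfate for it. Of 12 of its genes in the table, 2 rose and 0 fell in the blocked limma fit, where 5.99% of all genes rose, with a median of 0.04, and 0 passed without the block. Chst11 and Chst12, which both add 4-O-sulfate to chondroitin, rose by 0.34 (adjusted p 0.00110) and 0.26 (adjusted p 0.00743), but Chst12 did not pass without pair 2 or without pair 3. The polymerase genes Chsy1 at 0.03 (adjusted p 0.585) and Chpf at -0.11 (adjusted p 0.185) did not pass.

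A list of 14 receptors, ligands and adaptors that bind heparan sulfate or the syndecans had 13 genes in the table, of which 2 rose and 0 fell in limma with the block, where 5.99% of all genes rose, and 0 passed without it. The receptor Fgfr1 rose by 0.47 (adjusted p 0.0125), from 120 ± 76.3 to 173 ± 107 units, and the growth factor gene Pdgfb by 0.25 (adjusted p 0.0108). Fgfr1 did not pass without pair 2, 3 or 4, and Pdgfb did not pass without pair 4. Without pair 4, 1 gene of the list passed, and it was lower with acetate. The receptor gene Met had -0.04 (adjusted p 0.423) and the syndecan adaptor Sdcbp 0.03 (adjusted p 0.601).

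**Figure D5:**
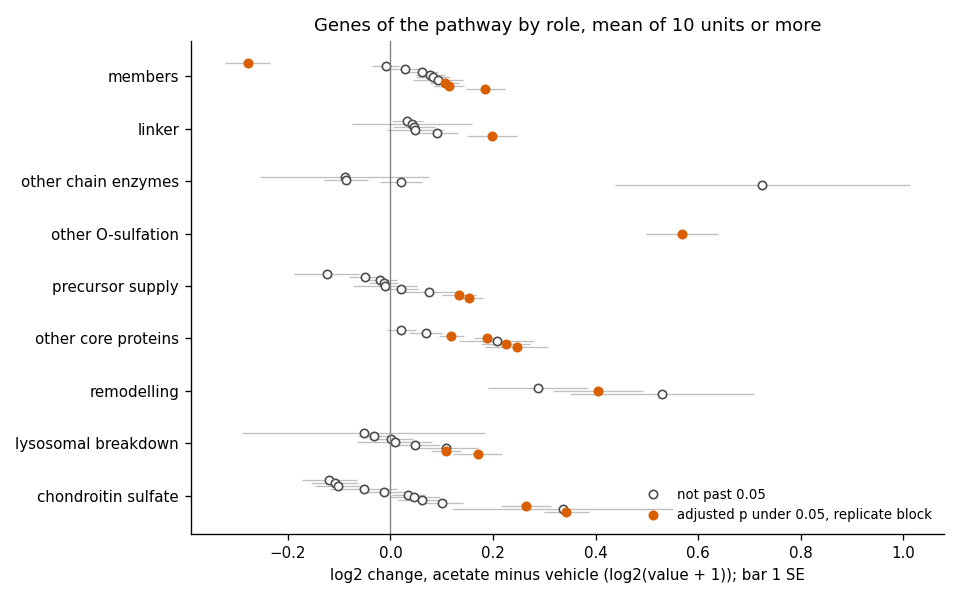
Log2 difference, acetate minus vehicle, of the members and of the other lists, for genes with a mean of 10 units or more. Each point is a gene with a bar of 1 SE from the fit with the replicate block, coloured where the adjusted p was under 0.05; Glce at -0.28 lies far below 0 and Hs3st1 at 0.57 far above.

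Marker genes of other cell types were read beside these values. The summed epithelial markers, 6 of 6 in the table, spanned 43413 to 61169 units in vehicle and 46239 to 62181 in acetate. Of these, Krt19 (log2 difference 0.40, adjusted p 2.54e-04, limma with the block) and Cdh1 (0.15, adjusted p 0.00592) rose, each in 4 of 4 pairs. Cldn3 at 0.15 (adjusted p 0.289), Epcam at 0.07 (adjusted p 0.154), Krt18 at -0.05 (adjusted p 0.363) and Krt8 at -0.06 (adjusted p 0.214) did not pass, and Krt8 was lower in 4 of 4 pairs. The fibroblast markers, 4 of 6 in the table, summed to 233 to 1523 units in vehicle and 396 to 1998 in acetate and were higher in 4 of 4 pairs. Most of that sum was Pdgfra, at 229 to 1496 units in vehicle and 388 to 1961 in acetate, and both Pdgfra (log2 difference 0.52, adjusted p 3.72e-04, limma with the block) and Pdgfrb (1.40, adjusted p 0.0119) rose, Pdgfrb from 10.1 ± 8.76 to 23.3 ± 13.8 units. Col1a2 was at 0 in 4 libraries and at most 3.82 units in the rest. Dcn was at 0 in vehicle replicate 1, with means of 4.22 ± 2.85 units in vehicle and 6.95 ± 5.35 in acetate. It was higher in 3 of 4 pairs and did not pass (log2 difference 0.72, adjusted p 0.314, limma with the block). The macrophage markers, 4 of 6 in the table, summed to 292 to 540 and 315 to 599 units, also higher in 4 of 4 pairs. Of these, Csf1r rose from 13.1 ± 3.66 to 28.4 ± 6.20 units (log2 difference 1.08, adjusted p 0.00774, limma with the block) with no overlap between the groups, Cd14 had 0.23 (adjusted p 0.0929), Cd68 0.02 (adjusted p 0.952), and Ptprc stayed at 0.68 to 3.02 units. The endothelial markers, 4 of 5, summed to at most 10.5 units in any library. The part of these markers in the differences of the members was not tested.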

How the data were processed

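Messenger RNA of 4T1 cells was sequenced in 4 vehicle and 4 acetate libraries (stranded Illumina libraries, paired ends per the labels). The authors aligned reads with STAR to GRCm38 (mm10); HTSeq is also in the submitters' processing notes. The deposited values are a normalised signal, reads divided by the library total and scaled to 20.0 M (M, mega), filtered by the authors on how many libraries express a gene: each of 20189 genes was above 0 in at least 4 of 8. Every value was a whole multiple of 1 read's worth (within 0.01 reads), which gave the reads used for edgeR and DESeq2 as alternatives. In vehicle replicate 3, 1 read was worth 1.0053 units, a step close to 1, and edgeR was also run on the 7 other libraries. Symbols came from GENCODE M21 (20004 matched, 185 did not).

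Acetate and vehicle were compared with limma 3.58.1 (moderated two-sided test with eBayes trend, R 4.3.3), fitted to log2(value + 1) of every gene; p-values were adjusted by Benjamini-Hochberg and read at 0.05. This scale understates the change of low genes. The alternative was a fit with the replicate number as a block. For acetate against vehicle, the adjusted p-values printed for single listed genes are from limma with the block, whether or not it changed the call. Same-numbered libraries share a label code, and the pairing rests on that code. Their deviations from group means correlated across genes at 0.81, 0.27, 0.20 and 0.69 in replicates 1 to 4. No correlation between libraries of different numbers was kept, so these values do not test the pairing. edgeR 4.0.16, DESeq2 1.42.0, other pseudocounts, a filter, other scalings and left-out libraries were further alternatives. Scripts were tested on simulated data.

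The members and lists were chosen with earlier results of these data known. All members are named; of each other list, the genes past the threshold (at most 8) and the 2 highest by mean value. Promoters are RefSeq windows. The result of 1 listed gene past the threshold is not reported here.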

Additional observations from a re-analysis of the deposited data

Results flagged for a closer look

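Within groups of 4 libraries, a library was looked for whose gap to its nearest neighbour was an unusually large part of the whole range. Over 76 groups of named genes 3 passed, where chance gives about 1 in 20, or 3.8. None was a member. Bpnt2, a phosphatase of the sulfate donor pathway, was high in vehicle replicate 1, at 5789 units against 4436 to 4604 in the other vehicle libraries (gap over range 0.876). Chsy1, a chondroitin polymerase gene, was high in acetate replicate 1, at 1898 units against 1414 to 1472 (gap over range 0.879). Chpf, its partner, was low in vehicle replicate 4, at 1076 units against 1456 to 1520 (gap over range 0.855). The same-numbered library of the other group was on the same side. Bpnt2 was highest in acetate replicate 1 (5593 units), Chsy1 was highest in vehicle replicate 1 (1807 units) and Chpf was lowest in acetate replicate 4 (921 units). The groups counted are therefore not independent.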

How the results depend on the processing

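The comparison of treatments depended on the pairing. With the replicate block limma called 1744 genes, 4 members, 11 pathway genes, 2 chondroitin genes and 2 genes of the binding list, against 0 of each without it. In the blocked fit, a pseudocount of 0.1 gave 1435 genes, 3 members and 8 pathway genes, a pseudocount of 5 gave 1764, 4 and 11, a filter at a mean of 10 units 2263, 4 and 11, median-of-ratios scaling 1821, 2 and 8, quantile scaling 1734, 4 and 9, edgeR 2400, 2 and 10, and DESeq2 1126, 2 and 5. Chondroitin and binding genes were 2 each in all of these. The split of the blocked calls was 1209 higher and 535 lower as deposited and 1000 and 821 after median-of-ratios scaling. edgeR without vehicle replicate 3, an alternative chosen after seeing the data, gave 1350 genes, 2 members, 6 pathway, 3 chondroitin and 2 binding genes. Of those 3 chondroitin genes, 2 were higher and 1 lower with acetate. Without the block, DESeq2 called 7 genes, and leaving out any 1 library gave 0 to 0. Leaving out each pair in the blocked fit gave 1662, 617, 409 and 539 genes (pairs 1 to 4), 0 to 3 members, 2 to 9 pathway, 1 to 2 chondroitin and 1 to 2 binding genes. Without pair 4, the 1 binding gene past the threshold was lower with acetate. By replicate number, leaving out a pair gave 6199 to 11610 genes and 3 to 7 members. Glce was the lowest member in all 30 settings. Without the block, leaving out 1 library turned the sign of Ext2, Ndst1, Sdc4 and Gpc1 and of no other member. The cause of these changes was not tested.

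Small differences of other genes turned sign: in edgeR on 7 libraries without the block Fam20b (-0.00121), Extl2 (-0.0245), Chsy1 (-0.0170) and Sdcbp (-0.0309), and Ugdh in edgeR (-0.00441), DESeq2 (-0.00574) and blocked DESeq2 (-0.000187). With 1 library left out and no block, the log2 differences of genes that turned ranged as follows: B3gat3 -0.0581 to 0.13, Bpnt2 -0.0891 to 0.0746, Chpf -0.22 to 0.0445, Chsy1 -0.0635 to 0.12, Col18a1 -0.17 to 0.41, Fam20b -0.00755 to 0.0661, Fgfr1 -0.29 to 1.303, Gusb -0.20 to 0.16, Hpse -0.38 to 0.85, Hspg2 -0.0955 to 0.26, Met -0.14 to 0.0769, Papss1 -0.0505 to 0.36, Pxylp1 -0.11 to 0.54, Sdcbp -0.0248 to 0.0770, Ugdh -0.13 to 0.14. With 1 pair left out in the blocked fit they ranged as follows: Bpnt2 -0.0377 to 0.00656, Extl2 -0.00308 to 0.0301, Ugdh -0.0171 to 0.0407.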
